A study of Mus musculus with 3 samples.

Results

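The 10 genes described here are Lonp1, other proteases of mitochondria and their subunits, and the peroxisomal Lon protease Lonp2: Lonp1, Lonp2, Clpp, Clpx, Yme1l1, Afg3l1, Afg3l2, Spg7, Oma1 and Htra2. They were chosen by name out of 21631 protein-coding genes. Their chromatin was read in a map of histone H3 monomethylated at lysine 4 (H3K4me1), made by chromatin immunoprecipitation and sequencing of primary adipocytes. The AKO library came from male C57BL/6J mice with an adipocyte-specific knockout of LONP1. The WT library came from male wild-type C57BL/6J mice, the controls of that knockout. An input library with no antibody was the background for both. Age, fat depot, number of animals and the Cre driver of the deletion were not given in the sources used here. Each genotype had 1 library, so no spread between animals exists, no test of genotype was made, and each difference below is between these 2 libraries only. All peaks that the authors called in the gene body or in the 10 kb on either side of it (mm10) were taken, which gave 20 of 62361 AKO peaks and 24 of 72040 WT peaks.

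Mitochondria keep their proteins in order with proteases that work in separate compartments. LONP1 and the complex of CLPP with CLPX degrade damaged or surplus proteins in the matrix, the AAA proteases sit in the inner membrane and face either the matrix or the intermembrane space, and OMA1 and HTRA2 respond to stress. H3K4me1 marks enhancers and the flanks of active promoters, and the length and height of its peaks describe the chromatin around a gene, not the amount of its RNA or protein. In beige and brown fat these proteases look after a dense respiratory chain.

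Transcription starts and promoter sequences were available from RefSeq (GRCm38.p6, the assembly also named mm10) for 8 of the 10 genes. The 250 bases before the start are shown for the 4 genes with a peak within 2 kb of a start in both libraries (Lonp1, Clpp, Afg3l1 and Spg7) and, for contrast, for Clpx, which had no peak. Capitals mark CpG dinucleotides, and each sequence runs 5′ to 3′ on the strand of its gene.
Lonp1 (chr17:56626904-56627153, minus strand): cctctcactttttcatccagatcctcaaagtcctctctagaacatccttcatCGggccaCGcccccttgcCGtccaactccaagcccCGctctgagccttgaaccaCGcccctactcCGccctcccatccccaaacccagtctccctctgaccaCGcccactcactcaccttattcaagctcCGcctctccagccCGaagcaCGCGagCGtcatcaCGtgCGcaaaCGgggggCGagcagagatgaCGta
Clpp (chr17:56990014-56990263, plus strand): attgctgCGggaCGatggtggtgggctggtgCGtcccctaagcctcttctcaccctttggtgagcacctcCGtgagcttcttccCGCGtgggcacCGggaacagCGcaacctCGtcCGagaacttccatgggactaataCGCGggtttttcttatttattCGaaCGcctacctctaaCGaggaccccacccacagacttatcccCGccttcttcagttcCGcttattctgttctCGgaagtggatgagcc
Afg3l1 (chr8:123477612-123477861, plus strand): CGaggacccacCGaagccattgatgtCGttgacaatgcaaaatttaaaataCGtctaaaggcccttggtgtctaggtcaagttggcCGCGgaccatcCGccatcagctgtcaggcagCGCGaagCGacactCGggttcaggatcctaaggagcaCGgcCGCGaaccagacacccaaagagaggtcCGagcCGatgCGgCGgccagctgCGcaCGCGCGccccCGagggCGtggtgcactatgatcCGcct
Spg7 (chr8:123065258-123065507, plus strand): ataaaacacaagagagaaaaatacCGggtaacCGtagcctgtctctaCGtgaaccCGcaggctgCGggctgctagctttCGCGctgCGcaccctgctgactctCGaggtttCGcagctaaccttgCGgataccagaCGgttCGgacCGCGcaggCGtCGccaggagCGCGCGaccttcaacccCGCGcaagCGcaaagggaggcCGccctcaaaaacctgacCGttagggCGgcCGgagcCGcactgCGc
Clpx (chr9:65294010-65294259, plus strand): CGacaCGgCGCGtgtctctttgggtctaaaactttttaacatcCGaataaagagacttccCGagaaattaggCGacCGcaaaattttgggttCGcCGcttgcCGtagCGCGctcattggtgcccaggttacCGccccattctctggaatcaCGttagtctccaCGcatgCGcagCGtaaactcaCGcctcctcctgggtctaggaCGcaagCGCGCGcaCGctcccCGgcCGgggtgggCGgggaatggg

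These promoters were rich in CpG. The Lonp1 stretch held 17 CpG, Clpp 18, Afg3l1 25, Spg7 29 and Clpx 27, against a median of 10 over 21045 promoters of protein-coding genes. Clpx, with no peak, had more CpG than 3 of the 4 promoters with a peak nearby. Of 6 motifs searched on both strands in 9 promoters of the protease genes, the NRF1 core TGCGCATGC was found in Clpx alone, as GCATGCGCA with its first base 86 bases before the start, and 1.67% of all promoters hold it. CCAAT was found in Clpx and Yme1l1 (35.6% of all promoters), and the CARE letters TGATGNAAN at the downstream start of Lonp2 (3.0%). The letters CCGGAAGT (ETS), AAGGTCA (ERR) and AANATGGC (YY1) were not in any of the 9 windows, and they occur in 3.83%, 3.63% and 3.68% of all promoters.

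The AKO library held 14733950 tags and the WT library 15015805 tags after duplicates were removed, against 9537585 for the input. The AKO list was the shorter one genome-wide, with 44.3 Mb covered, against 60.2 Mb in WT. The smallest called summit had 10 fragments in either library, so a weaker site was not detectable at this depth. The adipocyte label was set against marker genes: all 9 adipocyte markers carried a peak in both libraries (27.7 kb in AKO and 40.6 kb in WT in sum) and none of 4 hepatocyte markers did. Peaks also lay at 3 of 5 macrophage markers (10.6 kb in AKO and 17.3 kb in WT, with Adgre1 and Ptprc at 0), at 5 of 5 endothelial markers (7.85 kb and 14.1 kb) and at 4 of 5 muscle markers (5.38 kb and 12.5 kb, with Myod1 at 0). Of 5 thermogenic markers 4 carried a peak (6.95 kb in AKO and 9.48 kb in WT in sum, with Dio2 at 0), and of 4 neuronal markers 2 in AKO and 3 in WT (4.25 kb and 8.36 kb). Of all protein-coding genes, 31% had no peak in either library and 6.94% had peaks in WT only. Peaks at a few markers therefore do not tell which cell types were present. The part of other cell types in the differences below was not tested. In these bulk libraries, fewer marked cells and less mark per cell cannot be told apart.

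The mark was concentrated in the windows of 4 genes (Lonp1, Clpp, Htra2 and Spg7) and scarce in the rest. Of the peaks in the 10 windows, 6 of 20 in AKO and 12 of 24 in WT overlapped another gene. Most of the length counted for Htra2 and Spg7 lay outside their bodies. The Htra2 body held 0.454 kb in AKO and 1.503 kb in WT, and the Spg7 body 0.296 kb and 0.532 kb. Length covered by peaks in the window was less in AKO for 6 of the 10 genes, where 54.1% of all protein-coding genes had less. It was more in AKO for 2 genes (14.9% of all genes) and absent from both libraries for 2 (31% of all genes). In sum the 10 windows held 14.5 kb in AKO and 21.1 kb in WT, an AKO to WT ratio of 0.686, beside 0.724 over all protein-coding genes. The mean peak in these windows was 724 bp wide in AKO and 879 bp wide in WT, against 711 bp and 836 bp over all peaks. The median difference per gene was −0.342 kb, and −0.176 kb over all protein-coding genes. A gene was called lower or higher in AKO if its lengths differed by more than 2-fold and by at least 2 kb. None of the 10 met this rule in either direction, where it calls 5.35% of all protein-coding genes lower and 0.227% higher.

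**Figure D1:**
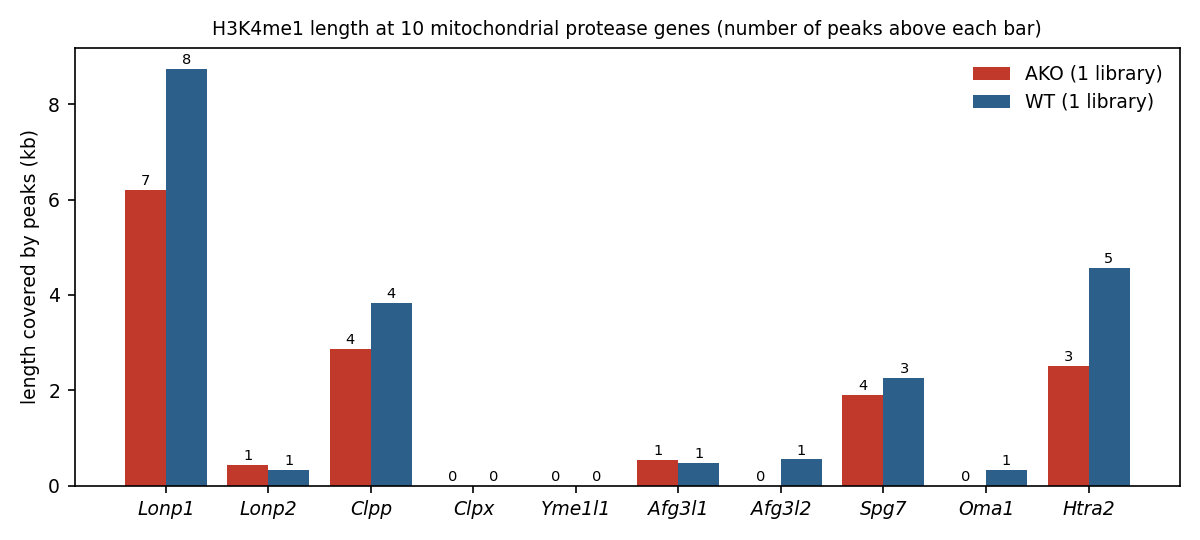
Length covered by H3K4me1 peaks (kb) in the window of each protease gene, with AKO (red) left of WT (blue) and the number of peaks above each bar; each bar is 1 library, so there are no error bars. Lonp1 carried 6.21 kb in AKO and 8.75 kb in WT, the most of the 10 genes in either library, and Clpx and Yme1l1 carried none.

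The order of the genes was similar in both libraries. In AKO it ran from Lonp1 (6.21 kb) through Clpp (2.87 kb), Htra2 (2.51 kb), Spg7 (1.91 kb) and Afg3l1 (0.542 kb) to Lonp2 (0.435 kb). In WT it ran from Lonp1 (8.75 kb) through Htra2 (4.57 kb), Clpp (3.83 kb), Spg7 (2.26 kb), Afg3l2 (0.550 kb), Afg3l1 (0.480 kb) and Oma1 (0.331 kb) to Lonp2 (0.330 kb). Clpp and Htra2 changed places, and with 1 library each it cannot be said which neighbours in these orders differ. Lonp1 alone made up 42.9% of the AKO length and 41.5% of the WT length. It lay above 90.8% of protein-coding genes in AKO and above 91.1% in WT, and per kb of window above 94.9% and 94.6%.

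**Figure D2:**
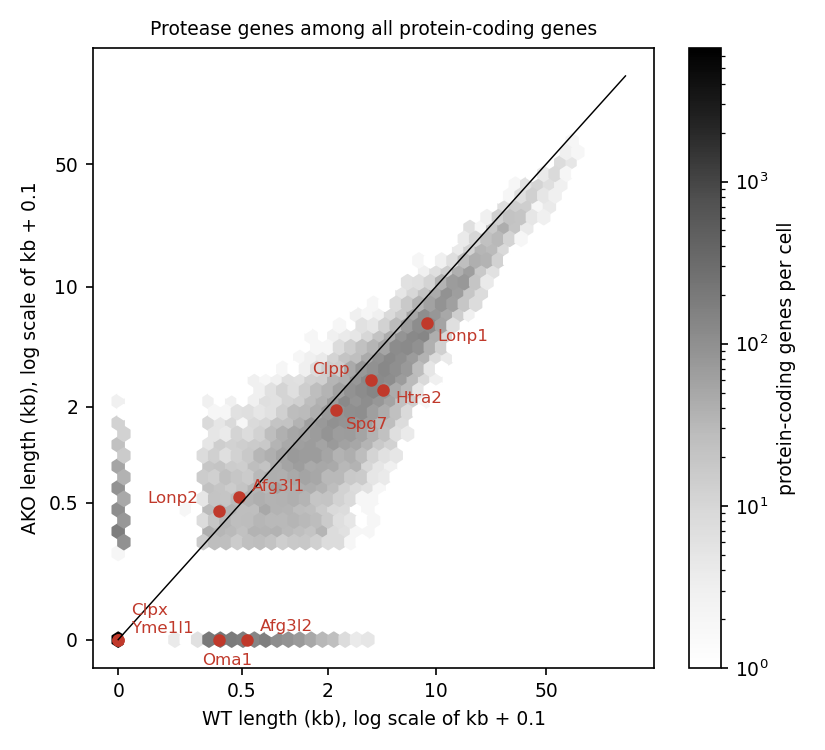
Each protease gene (red) by its length covered in WT (horizontal) and AKO (vertical), both in kb on a log scale of kb + 0.1, over the density of all 21631 protein-coding genes (grey); the line marks equal lengths. Lonp1 lies toward the upper end of the cloud and below the line, with 6.21 kb in AKO and 8.75 kb in WT, and Afg3l2 and Oma1 sit at 0 in AKO.

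Lonp1 (chr17:56614297-56626903, minus strand) is the gene deleted in the AKO adipocytes. It encodes the ATP-dependent Lon protease of the matrix. The mark at Lonp1 was present in both libraries, with 7 peaks in AKO and 8 in WT. The sources used here do not give which part of the gene was deleted, and a peak outside it would remain, so these peaks are no check of the knockout. Inside the gene body alone the peaks covered 4.66 kb in AKO and 5.40 kb in WT. The other part of the window's length lay over or between neighbouring genes.

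The tallest and widest peak of all 10 genes lay at the 3′ end of Lonp1. It spanned chr17:56614398-56617252 in AKO, with 2855 bp, a summit pileup of 22.0 and a fold enrichment of 7.67. In WT it spanned chr17:56614383-56617924, with 3542 bp, a pileup of 30.5 and a fold enrichment of 11.96. The pileup corresponds to 34 fragments in AKO (exact 95% Poisson interval 23.5 to 47.5) and 48 in WT (35.4 to 63.6), an AKO to WT ratio of 0.708 with an exact binomial interval of 0.443 to 1.12. The interval of the ratio holds 1, so a difference in height was not detectable at this depth. The peak was wider than 98.5% of the peaks of its own library in AKO and likewise in WT. Its lower edge lay 101 bp in AKO and 86 bp in WT inside the lower-coordinate end of Lonp1, and 152 bp and 137 bp from the neighbouring gene Rpl36, which encodes a ribosomal protein, so it cannot be assigned to Lonp1 alone.

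Near the Lonp1 start the libraries differed in which sites were called. Inside the gene a peak lay at chr17:56624762-56625718 in AKO with 18 fragments and at chr17:56624763-56625886 in WT with 24 fragments, both ending on nearly the same base on the side away from the start. Its near edge was 1185 bp from the start in AKO. Upstream of the start, WT had a peak of 23 fragments at chr17:56627510-56627918, with its near edge 607 bp away, and AKO had no peak within 1.79 kb of it. That site lies in Catsperd, a gene for a sperm ion channel subunit whose annotated body begins 8 bp from that of Lonp1 on the opposite strand, between the starts RefSeq lists for it. Further inside Lonp1, AKO had a peak of 16 fragments at chr17:56623851-56624318 that WT lacked, with the nearest WT peak 444 bp away. No peak of either library overlapped the Lonp1 start.

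The other sites of the Lonp1 window had lower summits than the 3′ peak. Those over Micos13 were above the median summit of their library (18 fragments in AKO and 19 in WT). So were the WT peaks of 24 and 23 fragments near the start. A peak of 14 fragments at chr17:56618140-56618522 in AKO overlapped a WT peak of 15 fragments at chr17:56618373-56619105 by 150 bp. Between these and the sites near the start lay 5.33 kb without a peak in AKO and 5.66 kb in WT. Beyond the 3′ end, over Micos13, a gene for a subunit of the complex that shapes cristae, AKO had 2 peaks of 25 and 20 fragments (chr17:56607540-56608079 and chr17:56608377-56608911) within a single WT peak of 28 fragments (chr17:56607528-56609107). Such a split of 1 WT peak into 2 or more AKO peaks occurred in 11.1% of all shared regions. Between Micos13 and Safb a peak of 14 fragments in AKO (chr17:56606801-56607270) faced 1 of 17 fragments in WT (chr17:56606764-56607269). WT peaks of 18 fragments in Rpl36 (chr17:56611827-56612283) and of 17 fragments in Safb (chr17:56605366-56605760) had no AKO partner. All 5 sites of the Lonp1 window marked in both libraries had fewer fragments in AKO, 105 in AKO and 132 in WT in sum, a ratio of 0.795 (0.610 to 1.04). Over all shared regions 71.8% had fewer in AKO and the summed ratio was 0.826, which lies within that interval.

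**Figure D3:**
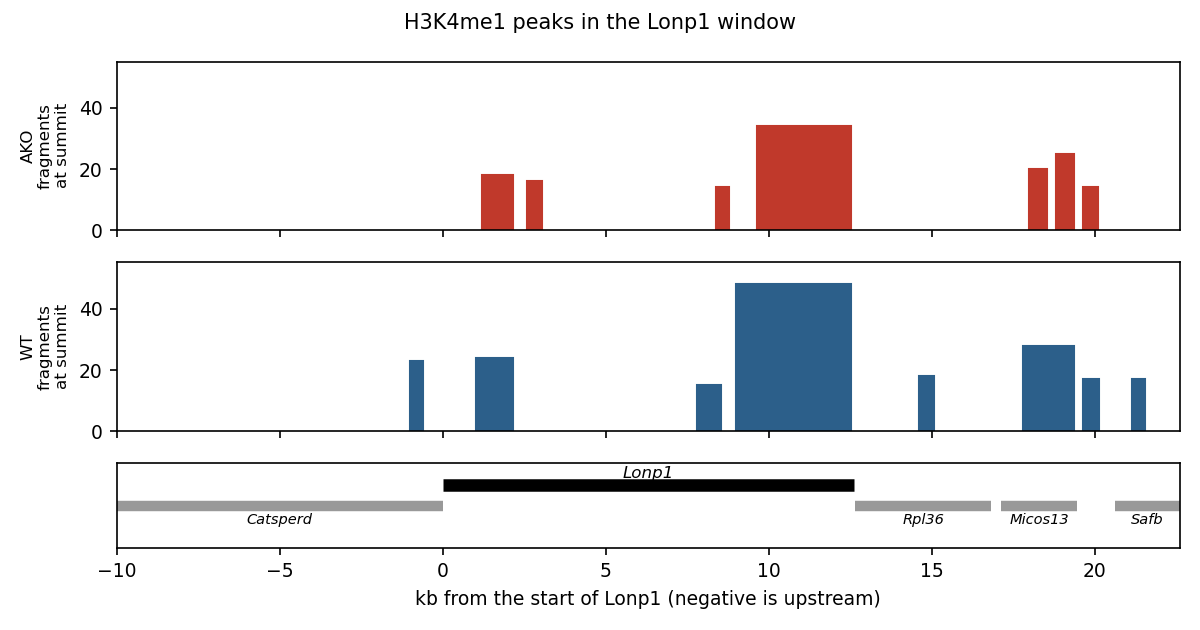
Peaks in the Lonp1 window by distance from the Lonp1 start in kb (negative is upstream), with the fragments at each summit as height, AKO (red) above WT (blue), and gene bodies below. The widest block near the 3′ end has 34 fragments in AKO and 48 in WT, and the WT block of 23 fragments upstream of the start has no AKO counterpart.

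By distance over both lengths, 3 protein-coding genes outside this window had lengths closest to those of Lonp1 over the 2 libraries. They were Zbtb48 (6.17 kb in AKO and 8.66 kb in WT, 0.0926 kb apart from Lonp1 in the plane of both lengths), Islr (6.30 kb and 8.78 kb, 0.0959 kb apart) and Prkaca (6.21 kb and 8.65 kb, 0.101 kb apart). With 2 points per gene this is a description of length only.

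Clpp and Clpx encode the parts of the other soluble matrix protease, CLPP the proteolytic chamber and CLPX the unfoldase that feeds it, and their loci differed sharply. Clpp (chr17:56990264-56996371, plus strand) had 4 peaks in each library, with 2.87 kb in AKO and 3.83 kb in WT. Clpx (chr9:65294251-65330658, plus strand) had none in either library over a window of 56.4 kb. The nearest AKO peak to the Clpx body was 18.7 kb away (chr9:65349375-65349689, 23 fragments) and the nearest WT peak 12.4 kb away (chr9:65281103-65281861, 18 fragments). Both lie beyond the window. Of 5071 protein-coding genes with windows of 50 to 120 kb, 21.2% had no peak in either library.

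At Clpp the tallest AKO peak was inside the gene at chr17:56992408-56992938 with 29 fragments, and its WT partner at chr17:56992457-56993071 had 24, a ratio of 1.21 (0.679 to 2.17). It was the tallest of the 3 shared sites in all 10 windows with more fragments in AKO. Closer to the start, a peak at chr17:56991061-56991356 had 14 fragments in AKO, and at chr17:56991002-56991351 18 in WT. AKO alone had a peak of 22 fragments at chr17:56993537-56994031, and WT alone one of 22 fragments at chr17:56997755-56998574, over Alkbh7. Downstream, before Gtf2f1 and reaching into Pspn in WT, lay a broad peak at chr17:57000408-57001956 in AKO, with 24 fragments and 1549 bp, and at chr17:57000027-57002066 in WT, with 28 fragments and 2040 bp. Within the Clpp body the length was 1.32 kb in AKO and 0.965 kb in WT, so the direction of the difference turned when the flanks were left out.

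**Figure D4:**
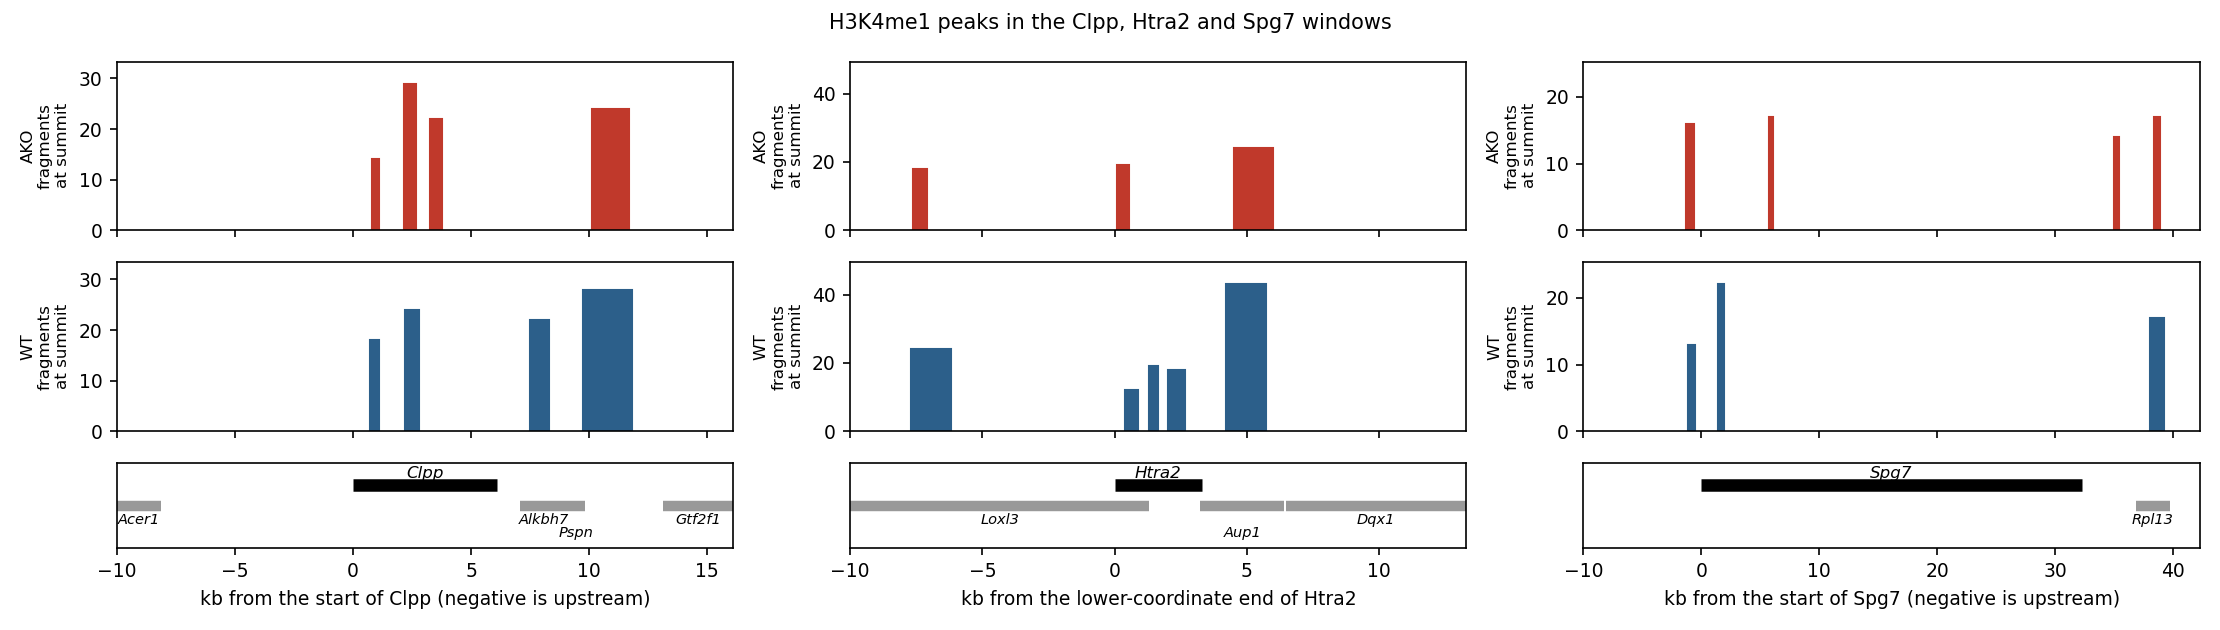
Peaks in the windows of Clpp, Htra2 and Spg7 by distance in kb from the gene start (for Htra2, from its lower-coordinate end), with the fragments at each summit as height, AKO (red) above WT (blue), and gene bodies below. Inside Clpp the tallest block has 29 fragments in AKO and 24 in WT, and the block over Aup1 beside Htra2 has 24 in AKO and 43 in WT.

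The membrane-bound AAA proteases ranged between no peak at Yme1l1 and several at Spg7. YME1L1 forms the complex that faces the intermembrane space, while AFG3L2, SPG7 (paraplegin) and AFG3L1 build the complex that faces the matrix. In human AFG3L1 is a pseudogene, and in mouse it is a working gene. Yme1l1 (chr2:23155442-23199260) had no peak in either library, and the nearest lay 84.7 kb from its body in AKO (14 fragments) and 118 kb in WT (20 fragments). Of all protein-coding genes, 19.6% had their nearest AKO peak farther away and 15.9% their nearest WT peak. Afg3l2 (chr18:67404764-67449192) had no AKO peak and 1 WT peak of 16 fragments at chr18:67395962-67396511, which lies in the tubulin gene Tubb6 and not in Afg3l2. The nearest AKO peak, of 17 fragments at chr18:67393767-67394200, lay 10.6 kb from the Afg3l2 body, just outside the window of 10 kb, so the absence of an AKO peak depends on where the window ends.

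Afg3l1 (chr8:123477862-123503916, plus strand) had 1 peak shortly after its start in each library. It lay at chr8:123478961-123479502 in AKO and at chr8:123479092-123479571 in WT, with 16 fragments in both. Spg7 (chr8:123065508-123097760, plus strand) had 4 peaks in AKO and 3 in WT, covering 1.91 kb and 2.26 kb. Just upstream of its start a peak had 16 fragments in AKO (chr8:123064207-123064879) and 13 in WT (chr8:123064345-123064934), a ratio of 1.23 (0.555 to 2.78). Past the start, WT had a peak of 22 fragments at chr8:123066925-123067456 and AKO one of 17 fragments at chr8:123071265-123071560, and neither had a partner. Downstream over Rpl13, a ribosomal protein gene, the fragments were equal at 17, with a width of 482 bp in AKO (chr8:123103908-123104389) and 1142 bp in WT (chr8:123103554-123104695). A peak of 14 fragments at chr8:123100486-123100944 was called in AKO only. The 2 libraries thus shared 2 sites at Spg7, and on neither had AKO fewer fragments than WT (33 in AKO and 30 in WT in sum, ratio 1.10, interval 0.650 to 1.87).

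The stress proteases differed from each other. OMA1, a metalloprotease of the inner membrane, cleaves the fusion protein OPA1 and the stress messenger DELE1, and HTRA2 is a serine protease of the intermembrane space. Oma1 (chr4:103311875-103371869) had no AKO peak, and the nearest lay 132 kb from its body. In WT it had 1 narrow peak inside the gene at chr4:103340631-103340961, with 331 bp and 19 fragments, a summit higher than 43.8% of WT peaks. Peaks in WT but none in AKO were found at 2 of the 10 genes, Oma1 and Afg3l2, and at 6.94% of all protein-coding genes.

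Htra2 (chr6:83051266-83054571) had 3 peaks in AKO and 5 in WT, with 2.51 kb in AKO and 4.57 kb in WT. This was the lowest AKO to WT ratio of the genes marked in both libraries, 0.550, and it stayed short of the 2-fold rule. The tallest site lay over the adjoining gene Aup1, which encodes a lipid droplet and endoplasmic reticulum protein, at chr6:83055768-83057271 in AKO with 24 fragments and at chr6:83055458-83057000 in WT with 43 fragments. The ratio was 0.558 with an interval of 0.324 to 0.941. It was the lowest ratio of the 15 shared sites in the 10 windows and the only one whose interval left out 1. How many of all shared regions have such an interval was not counted, so it cannot be said whether 1 of 15 is unusual. Of all shared regions, 4.80% had a lower ratio. The summed ratio over all shared regions, 0.826, lies within the interval of this site. At the lower-coordinate end of Htra2, where it overlaps the lysyl oxidase family gene Loxl3, the direction was the other one, with 19 fragments in AKO (chr6:83051371-83051824) and 12 in WT (chr6:83051671-83052167), a ratio of 1.58 (0.730 to 3.58). These peaks overlapped by only 154 bp, and the AKO summit lay outside the WT peak. The ratio therefore compares heights at different positions. WT alone had peaks of 19 fragments at chr6:83052549-83052922 and 18 at chr6:83053289-83053920 inside Htra2. In Loxl3 a peak had 18 fragments and 555 bp in AKO (chr6:83043624-83044178), and 24 fragments and 1520 bp in WT (chr6:83043553-83045072).

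Lonp2 (chr8:86624043-86716636, plus strand) encodes the Lon protease of peroxisomes, so by its product it is a relative of Lonp1 and not a mitochondrial protease. It had 1 weak peak in a window of 113 kb in each library. The peak spanned chr8:86662580-86663014 in AKO with 15 fragments and chr8:86662561-86662890 in WT with 16 fragments, 11.0 kb from the nearer of the starts that RefSeq lists. The lengths of 0.435 kb in AKO and 0.330 kb in WT lay above 44.9% and 37.4% of protein-coding genes.

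Taking the sites of all 10 windows as one set, 15 were marked in both libraries, 4 in AKO only and 9 in WT only. A WT partner, overlapping by at least 1 bp, was found for 16 of the 20 AKO peaks, or 80.0% (exact 95% binomial interval 56.3 to 94.3), and over all AKO peaks the share was 76.2%. An AKO partner was found for 15 of the 24 WT peaks, or 62.5% (40.6 to 81.2), and over all WT peaks the share was 60.4%. Both shares thus lie near those of the whole lists. In the shared sites AKO had fewer fragments at 10, more at 3 and equal numbers at 2, where 71.8% of all 41022 shared regions had fewer in AKO, 21.8% had more and 6.36% had equal numbers. Their summed fragments were 297 in AKO and 343 in WT, a ratio of 0.866 (0.739 to 1.01), beside 0.826 over all shared regions. Fragment ratios in this report are not scaled for the smaller AKO tag number. With fragments scaled to equal tag numbers the summed ratio was 0.882, beside 0.841 over all shared regions. Sites called in AKO only had between 14 and 22 fragments (median 16.5) and those called in WT only between 16 and 23 (median 19). The median over shared sites was 18 in each library. The highest summits were at shared sites, but by the median the sites called in WT only were not lower than the shared ones. Poisson and binomial intervals here cover counting error only.

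**Figure D5:**
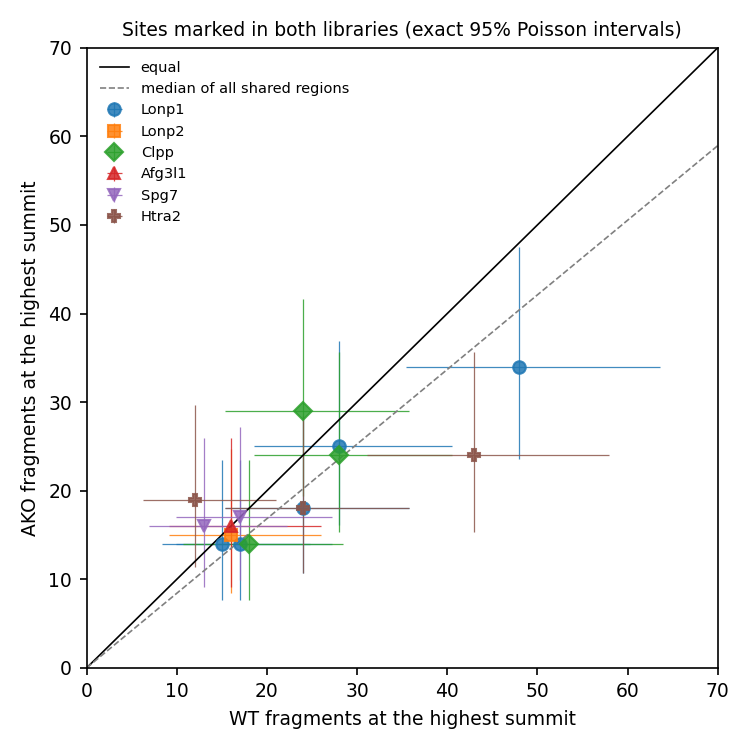
Fragments at the highest summit of each of the 15 sites marked in both libraries, with WT on the horizontal and AKO on the vertical axis and exact 95% Poisson intervals. The solid line marks equal numbers and the dashed line the median AKO to WT ratio of all shared regions, 0.842; the Aup1 site beside Htra2 (24 in AKO and 43 in WT) and the 3′ site of Lonp1 (34 in AKO and 48 in WT) lie farthest to the right.

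A peak within 2 kb of a start was found for 4 of the 8 genes with a listed start in AKO, where 35.2% of 17274 protein-coding genes had one, and for 4 in WT, where 42.5% had one. Within 1 kb it was 2 genes in AKO (22.6% of all) and 3 in WT (32.5% of all), with Lonp1 the gene that differed. Over the start itself no protease gene had a peak in either library, and 7.65% of all genes had one in AKO and 14.4% in WT.

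Other genes of mitochondrial protein quality control were compared as 3 lists. Of 12 other mitochondrial peptidases, 6 had less length in AKO, 2 had more, and 4 (Atp23, Immp1l, Lactb and Pitrm1) had no peak in either library. Their summed ratio was 0.792 and their median difference −0.0120 kb. None met the rule of size. The largest deficit was at Metap1d, a mitochondrial methionine aminopeptidase (1.10 kb in AKO and 2.77 kb in WT), and the largest excess at Immp2l, an inner membrane peptidase (2.04 kb in AKO and 1.59 kb in WT).

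Of 14 partners, chaperones and scaffolds, 11 had less length in AKO and 3 had more, with a summed ratio of 0.718 and a median difference of −0.810 kb. Stoml2, which encodes a membrane scaffold that binds YME1L1, was the 1 gene of this list called lower by the rule of size, with 1.79 kb in AKO and 4.21 kb in WT, where the rule calls 5.35% of all protein-coding genes lower. Clpb, encoding a disaggregase of the intermembrane space, had the largest deficit, 6.51 kb in AKO and 9.36 kb in WT. Hspa9, the chaperone of the matrix import motor, had the largest excess, 1.18 kb in AKO and no peak in WT. Hspd1 and Hspe1, a chaperonin and its co-chaperonin encoded side by side, had no AKO peak and shared the same 0.833 kb in WT.

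Of 16 substrates and signalling partners, 8 had less length in AKO, 6 had more and 2 (Tfam and Xiap) had no peak, with a summed ratio of 0.706 and a median difference of −0.459 kb. Alas1, the enzyme that starts heme synthesis, had the largest deficit and was called lower by the rule of size, with 2.31 kb in AKO and 7.09 kb in WT. It was the 1 gene of this list so called, again beside 5.35% of all protein-coding genes. Timm23, the channel of the inner membrane translocase, had the largest excess, 0.940 kb in AKO and no peak in WT. Opa1, cleaved by OMA1 and YME1L1, had 0.722 kb in AKO and 0.332 kb in WT. Counts in these lists stand beside 54.1% of all protein-coding genes with less length in AKO and 14.9% with more. No peak in either library was found at 31% of all protein-coding genes. Over all of these the median difference was −0.176 kb and the summed ratio 0.724.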

How the data were processed

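H3K4me1 peak lists of 1 AKO and 1 WT library were used, and the input has no list of its own. Per the submitters' processing notes, Bowtie2 2.2.5, MACS2 2.2.1 and mm10 were used, while the file headers name MACS 2.1.1.20160309. Per the file headers, the authors called narrow peaks on each library against the same input at a q-value cutoff of 0.05, keeping 1 tag per position. The genotype label of the input is wild type and its title ties it to AKO. The deposited values are the summit pileup signal, scaled by the authors to the tag number of the input, the fold enrichment, which is a ratio over local background, together with the −log10 of p- and q-values. Narrow mode can split broad H3K4me1 domains.

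Pileup was turned back into fragments by dividing by the scale of each library (0.647 in AKO and 0.635 in WT), and all values came out whole within 0.02. Gene bounds were those of RefSeq on GRCm38.p6, with all 10 symbols matched. Covered length was summed over each window, peaks were paired by an overlap of at least 1 bp, and intervals are exact at 95%. The ratio of a shared site compares the highest summit of each library within it. These summits can lie at different positions, as they did at Lonp2 and at the broad peak downstream of Clpp. Coverage and pairing were tested on simulated peaks. Intervals came from scipy 1.17.1 and tables from pandas 2.3.3 and numpy 2.4.6, under Python 3.11.15, and figures from matplotlib 3.10.9. Genes named are the 10 members, in each list those called by the rule of size and the extremes, 3 genes like Lonp1 and the neighbours in which a peak lies. Hspd1, Hspe1 and Opa1 were named after their values were seen. The members and lists were chosen with earlier results of these data known. Alternatives covered windows, stricter or shortened lists, joined peaks, overlap, scaling and the rule of size.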

Additional observations from a re-analysis of the deposited data

How the results depend on the processing

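No paired analysis was possible because each genotype has 1 library. No protease gene was called lower by the rule of size with gene bodies alone, with 5 or 20 kb on each side, with only peaks enriched 4-fold or more, or with equal peak numbers or covered lengths. With gene bodies alone and with equal covered length, Lonp1 alone had the 2 kb in WT that the rule needs. No other gene could be called lower in these settings. Htra2 was the 1 gene called with only peaks of −log10 q 5 or more (no peak kept in AKO and 4.07 kb in WT), with peaks within 1 kb joined, and with a rule of 1.5-fold and 1 kb, settings that call 11.0%, 7.11% and 19.99% of all protein-coding genes. The summed AKO to WT ratio was 0.808 with gene bodies alone (0.756 over all genes), 0.769 with 5 kb on each side (0.733) and 0.673 with 20 kb (0.713). With only peaks of −log10 q 5 or more it was 0.453 (0.554), and with only peaks enriched 4-fold or more 0.670 (0.694). It was 0.724 with equal peak numbers (0.774), 0.976 with equal covered length (0.935) and 0.753 with joined peaks (0.740). The median difference was 0 kb with gene bodies alone, 5 kb, peaks of −log10 q 5 or more and equal covered length. Over all genes the median was −0.017 kb with 5 kb and 0 kb in the rest of these settings. For the protease genes it was −1.36 kb with 20 kb (−0.355 kb over all genes). It was −0.0670 kb with only peaks enriched 4-fold or more (−0.049 kb) and −0.166 kb with equal peak numbers (0 kb). The setting of equal covered length also shortened both lists, to 50% of the length of the AKO list, leaving 6.51 kb in AKO and 6.67 kb in WT and no peak at 7 of the 10 genes, so the effect of equal length and of a stricter list cannot be told apart. Under it 2 genes had less length in AKO (23.9% of all genes), and 50% of AKO peaks had a partner (50.1% of all AKO peaks). With only peaks of −log10 q 5 or more, 33.3% of WT peaks had one (44.2% of all WT peaks). The difference reversed at Clpp with gene bodies alone (0.357 kb) and equal covered length (2.58 kb), at Spg7 with 5 kb (0.306 kb) and equal peak numbers (0.236 kb), and at Afg3l1 with 20 kb (−1.64 kb). The causes were not tested. Lonp1 and Htra2 had less length in AKO in all 8 alternatives of window or peak list, which were all drawn from the same AKO and WT lists. They were also the genes with the most WT length of the 10, and the WT list was the longer one genome-wide. How many of all protein-coding genes had less length in every alternative was not counted, so this is not shown to be particular to them. At 14 of the 15 shared sites the interval of the ratio held 1, so a difference there was not detectable at this depth. The share of such intervals over all shared regions was not counted.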
